A study of Mus musculus with 2 samples.

Results

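Among the 1078 tissue-specifically transcribed regions (TSTRs) listed for mouse embryonic limb, 7 overlapped an annotated gene of a small nuclear or small nucleolar RNA. This report describes 6 of these 7. The 6 lay at Snord118 and Snord13, the genes of the U8 and U13 small nucleolar RNAs (snoRNAs), and at genes annotated as those of small nuclear RNAs (snRNAs). The latter were a U2 gene, a U4 gene, and U1 genes on chromosome 3 and on chromosome 11. The 6 were chosen by position from the limb list, out of 1912 regions in the heart and limb lists together. The other of the 7, at a SNORD113 gene and with a limb over heart ratio of 1.49, was not part of this choice. It is described near the end of these results. The limb list itself was selected on a higher share of reads in limb than in heart by the study, in these same libraries. The read counts and RPKM that follow are therefore the values behind the choice, and they are given as a description with no test.

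Total RNA was sequenced from heart and from limb of CD-1 strain embryos at embryonic day 11.5, after removal of ribosomal RNA. No treatment or mutation was applied to either group. Each tissue was a single pool of microdissected tissue from multiple embryos, so no difference between heart and limb has a replicate error. The intervals below cover counting error only. In bulk tissue, fewer cells that make an RNA and less of that RNA per cell cannot be told apart. The count, length and RPKM columns together give a heart total of 222362239 reads and a limb total of 192488089. The study's own test of tissue specificity used totals without ribosomal regions. Its mapping summary gives a higher ribosomal share in the limb library than in the heart library, so ratios on totals less ribosomal reads are given in the last section. The files hold no values of protein-coding genes, so the tissue labels were not checked here against marker genes.

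U1, U2 and U4 snRNAs are the RNA cores of particles of the spliceosome, the machine that removes introns from pre-mRNA. U1 pairs with the start of the intron, U2 with the branch site, and U4 escorts U6 into the assembling complex. U8 and U13 are snoRNAs of the C/D box kind that act in the nucleolus during ribosomal RNA maturation. Genes of these snRNAs, and the independently transcribed U8 and U13 genes, are read by RNA polymerase II. Their primary transcripts extend a short way past the mature 3′ end before they are trimmed. Many mammalian snRNA genes exist in several near-identical copies, with a large number of degenerate relatives elsewhere in the genome.

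The genes at 5 of the loci are shown first, since each of these 5 regions begins inside its gene and runs past the 3′ end. Each sequence was read from the mouse reference (NCBIM37, the mm9 build of the files) on the strand of the gene, 5′ to 3′, with the annotated gene in capitals. The 100 bases after the gene, into which these 5 regions run, follow in lower case. The coordinates are chr11:68886929-68887163 (plus strand) for Snord118, chr12:60141322-60141612 (plus) for U2, chr3:96132348-96132613 (plus) for U1 on chromosome 3, chr5:115940263-115940503 (plus) for U4, and chr11:11954051-11954306 (minus) for U1 on chromosome 11.
Snord118: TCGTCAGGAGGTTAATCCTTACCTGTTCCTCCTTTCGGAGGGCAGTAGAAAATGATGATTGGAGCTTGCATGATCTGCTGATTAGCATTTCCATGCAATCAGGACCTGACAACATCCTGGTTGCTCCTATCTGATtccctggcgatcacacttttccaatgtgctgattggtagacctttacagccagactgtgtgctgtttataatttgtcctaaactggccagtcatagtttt
U2: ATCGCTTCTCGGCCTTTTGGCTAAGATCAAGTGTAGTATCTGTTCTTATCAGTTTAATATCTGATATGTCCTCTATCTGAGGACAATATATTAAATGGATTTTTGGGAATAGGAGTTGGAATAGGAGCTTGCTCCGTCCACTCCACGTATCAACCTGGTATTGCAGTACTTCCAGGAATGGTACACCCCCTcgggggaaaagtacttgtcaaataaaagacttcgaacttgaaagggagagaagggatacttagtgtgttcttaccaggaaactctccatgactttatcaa
U1 on chromosome 3: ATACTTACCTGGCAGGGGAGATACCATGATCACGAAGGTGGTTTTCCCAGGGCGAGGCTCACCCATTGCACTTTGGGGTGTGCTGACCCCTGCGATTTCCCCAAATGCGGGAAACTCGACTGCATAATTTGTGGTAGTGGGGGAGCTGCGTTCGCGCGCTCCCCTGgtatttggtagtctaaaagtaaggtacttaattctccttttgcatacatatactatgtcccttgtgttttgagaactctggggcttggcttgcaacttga
U4: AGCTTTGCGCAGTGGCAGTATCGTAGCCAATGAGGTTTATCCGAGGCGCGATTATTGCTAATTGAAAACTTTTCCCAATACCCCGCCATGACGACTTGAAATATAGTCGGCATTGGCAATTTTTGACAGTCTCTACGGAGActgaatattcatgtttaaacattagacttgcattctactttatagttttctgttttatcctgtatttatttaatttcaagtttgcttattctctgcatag
U1 on chromosome 11: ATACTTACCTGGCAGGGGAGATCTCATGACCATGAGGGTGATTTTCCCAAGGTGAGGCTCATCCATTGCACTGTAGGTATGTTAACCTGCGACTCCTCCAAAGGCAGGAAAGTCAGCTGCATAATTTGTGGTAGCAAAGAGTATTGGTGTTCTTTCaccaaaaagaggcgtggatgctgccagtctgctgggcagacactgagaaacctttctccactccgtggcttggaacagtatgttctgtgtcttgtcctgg

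Letters searched for working parts of the snRNAs were present in the printed genes. For U4 no pairing site was searched. The genes were picked by their annotated names, so the letters are no independent evidence of what the genes are. The run ACTTACCTG, with which U1 pairs to the start of introns, began at base 3 of both U1 genes, counted from the first base of the gene. The run GTAGTA, with which U2 pairs to the branch site, began at base 33 of the U2 gene. Each snRNA gene held 1 of the 3 spellings searched for the binding site of Sm proteins, the ring around the RNA of these particles. The U2 gene held ATTTTTG at base 99, U4 the same letters at base 119, and the U1 genes ATTTGTG at base 127 (chromosome 3) and base 124 (chromosome 11). The third spelling, ATTTTTTG, was in none of the 4. The pairing letters of U1 and U2, and the Sm letters of U2, lay before the part of the gene that the region held. For scale, windows of the gene's length at the centres of all 1912 regions, read on the plus strand, held these letters in 0.105% (ACTTACCTG), 2.46% (GTAGTA), 2.46 to 3.09% (ATTTTTG) and 1.94 to 2.14% (ATTTGTG) of cases.

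The snoRNA gene Snord118 held the C box letters TGATGA at base 53 and the D box letters CTGA at bases 78, 106 and 131 of 135. The C box letters were in 4.13% of the central windows of this length, and the D box letters in 50.1%, so the 4-letter run alone says little. The 3′ box, a signal after snRNA genes searched here as GTTT, at most 3 further bases, AAA, any 3 bases and AGA, was looked for in the 100 bases after each gene on the gene's strand. It was found after none of the 6 genes, and on neither strand of any of the 6 regions. It was in 2.6% of all limb regions on either strand, and after 5 of the 51 annotated U2 genes (9.8%) and 1 of the 206 annotated U1 genes.

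In 5 of the 6 loci the region began inside the gene and ran on past its 3′ end. The Snord118 region (chr11:68886966-68887578) held gene bases 39 to 135 and 515 bp after the gene, which was 84.2% of its length. The U2 region (chr12:60141447-60142239) held bases 127 to 191 of 191 and 727 bp after the gene, or 91.8% of its length. The U1 region on chromosome 3 (chr3:96132460-96132781) held bases 114 to 166 of 166 and 268 bp after it. The U4 region (chr5:115940340-115940818) held bases 79 to 141 of 141 and 415 bp after it, and the U1 region on chromosome 11 (chr11:11953889-11954227) held bases 80 to 156 of 156 and 261 bp after it. None of these 5 regions held the first base of its gene.

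All 5 reached more than 200 bp past the gene's 3′ end, and 200 bp is the length to which the authors extended alignments to call regions. How far that extension or the region calling set these edges was not tested. Whether the deposited counts were made on extended reads is not stated in the sources used here. The deposited counts carry no strand, so which strand the reads beyond the genes came from is not known from the files. These base positions assume that the deposited start counts from 0, and would shift by 1 otherwise. The RPKM used end minus start as the length, but the convention itself is not stated in the sources used here.

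Snord13 was the exception. Its region (chr8:32260344-32260679) held gene bases 1 to 95 of 104, stopped short of the 3′ end, and ran 240 bp to the 5′ side of the gene, which was 71.6% of its length. On that side the nearest protein-coding gene, BC019943, starts 108 bp from the end of the region and is transcribed in the opposite direction to Snord13. The other regions had different surroundings. The Snord118 region lay 171 bp after the 3′ end of Tmem107 on the same strand, a gene for a protein of the ciliary transition zone, with 133 bp between the genes themselves. The U2 region lay 1840 bp from the 3′ end of Trappc6b, which runs on the other strand, and the closest coding gene was 5606 bp away for U4 (Sirt4), 15203 bp for U1 on chromosome 11 (Grb10) and 34281 bp for U1 on chromosome 3 (Fcgr1). No region overlapped a protein-coding gene or any annotated gene other than its small RNA gene.

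**Figure D1:**
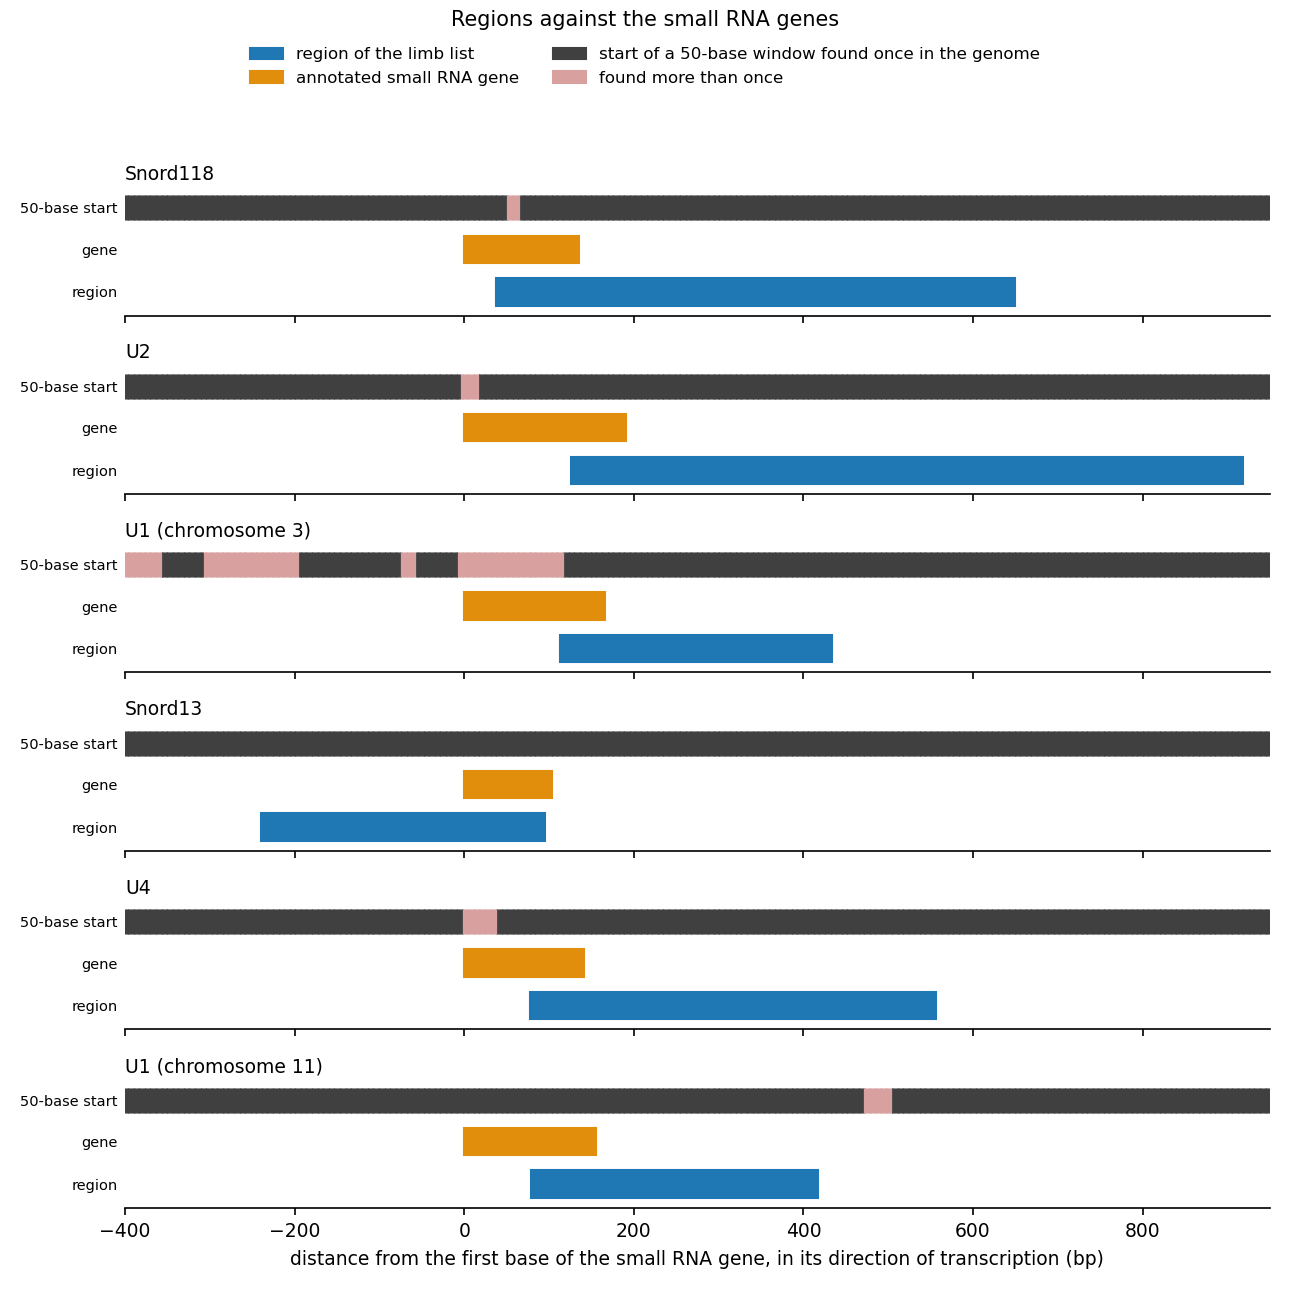
Position of the 6 limb regions (blue) against the annotated small RNA genes (orange), in bp from the first base of the gene in its direction of transcription, with the starts of 50-base windows found once (dark) or more than once (pink) in the reference on either strand. In the plot 5 regions begin inside the gene and run to its right, up to 727 bp past the end at U2, while the Snord13 region runs 240 bp to the left, and pink starts cover the part of the U1 gene on chromosome 3 from which a window stays inside the gene.

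The study excluded reads that mapped repetitively, so the share of each locus where a 50-base window matches the reference exactly once was measured. In the U1 gene on chromosome 3, none of the 117 windows of 50 bases that lie wholly inside the gene was unique. Their median number of exact matches in the genome was 9, and the largest 22. The first unique window started at base 118, where the window reaches 1 base past the gene, and the region itself started at base 114. A 50-base read wholly inside this gene thus matched several places in the reference. Of the 272 windows inside the region 268 were unique, each of them reaching past the end of the gene.

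The other genes were less repeated. In the U4 gene 54 of 92 windows were unique, the first starting at base 39, and in the U2 gene 125 of 142, the first starting at base 18. In Snord118 71 of 86 windows were unique and the rest had 2 matches, while all 55 windows of Snord13 and all 107 of the U1 gene on chromosome 11 were unique. In the 300 bp after the gene every window was unique at all 6 loci. In the 300 bp before the gene 51.4% of windows were unique for U1 on chromosome 3 and 100% for the other 5 genes. Within the deposited regions the unique share was 100% for U2, Snord13, U4 and U1 on chromosome 11, 98.5% for U1 on chromosome 3 and 97.3% for Snord118. Over the whole limb list the median was also 100%, and 86.4% of its regions had no repeated window. This count asks for an exact match to the reference genome. It takes no account of differences in CD-1 embryos, or of mismatches that the authors' mapping may have allowed. The shares may thus overstate where a read was uniquely placed, above all in genes with close copies.

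A search for similar sequences also put the U1 gene on chromosome 3 first. At 90% identity or more over at least 50% of the gene, the genome held 33 matches to the U1 gene on chromosome 3, itself included, of which 2 others were identical over the whole gene. It held 14 matches to U2, 11 to U4, and 2 each to Snord118 and Snord13. The U1 gene on chromosome 11 matched only itself. Its closest relative over at least 90% of the gene had 75.5% identity, and it was 74.1% identical to the U1 gene on chromosome 3, with the first 22 bases the same. It is called U1 here because the annotation names it so, and it is the most diverged of the 6 from other copies. The U4 gene has a second U4 gene 654 bp before it on the same strand, identical at 139 of 141 bases, but the 300 bp after the 2 genes aligned at only 53.2% identity. No other region of either list lay within 1000 bp of that neighbouring U4 gene.

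The U8 region carried the most reads. The Snord118 region had 280 reads in heart and 1069 in limb, or 2.06 RPKM in heart (95% exact Poisson interval 1.82 to 2.31) and 9.07 RPKM in limb (8.54 to 9.64). RPKM scales the reads of a region by its length and by the depth of the tissue's library. The limb level was 4.41 times the heart level (exact conditional interval 3.86 to 5.05). It ranked 18 of 1078 by RPKM in limb and 11 by reads, but only 506 by its limb over heart ratio, and it supplied 50.8% of the 2106 limb reads in the 6 regions.

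The Snord13 region, at the gene of the other snoRNA, had 44 reads in heart and 127 in limb. Its level was 0.591 RPKM in heart (0.429 to 0.793) and 1.97 in limb (1.64 to 2.34), a ratio of 3.33 (2.35 to 4.81). Both snoRNA regions came from the list selected for more limb reads, so the direction of these ratios restates that choice.

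Of the spliceosomal loci, the U1 region on chromosome 3 was highest in limb per length. It had 94 reads in heart and 246 in limb, or 1.32 RPKM (1.06 to 1.61) and 3.98 RPKM (3.5 to 4.51), with a limb over heart ratio of 3.02 (2.37 to 3.88). The U2 region had 144 reads in heart and 400 in limb, or 0.818 RPKM (0.69 to 0.963) and 2.62 RPKM (2.37 to 2.89), a ratio of 3.21 (2.65 to 3.91). Both were close to Snord13 in ratio and lay within each other's intervals.

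U4 had the smallest ratio. Its region had 147 reads in heart and 225 in limb, or 1.38 RPKM in heart (1.17 to 1.63) and 2.45 in limb (2.14 to 2.79), a ratio of 1.77 (1.43 to 2.19). In heart it was the second highest of the 6, above U1 on chromosome 3 by less than their counting intervals, while in limb it was the fourth. The U1 region on chromosome 11 was the weakest, with 15 reads in heart and 39 in limb, or 0.2 RPKM (0.112 to 0.329) and 0.599 RPKM (0.426 to 0.82). Its ratio of 3.0 had the widest interval (1.62 to 5.86).

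In limb the regions stood in the order Snord118, U1 on chromosome 3, U2, U4, Snord13 and U1 on chromosome 11, over a 15.1-fold range of RPKM. The intervals of U2 and U4 overlapped, as did those of U4 and Snord13, so those neighbours are not separated at this depth. In heart the order was Snord118, U4, U1 on chromosome 3, U2, Snord13 and U1 on chromosome 11, over a 10.3-fold range. There U4 and U1 on chromosome 3 were not separated, nor were U2 and Snord13. The ratios of 11 of the 15 pairs of regions had overlapping intervals. The 4 pairs that did not were U4 against Snord118, U2, U1 on chromosome 3 and Snord13.

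**Figure D2:**
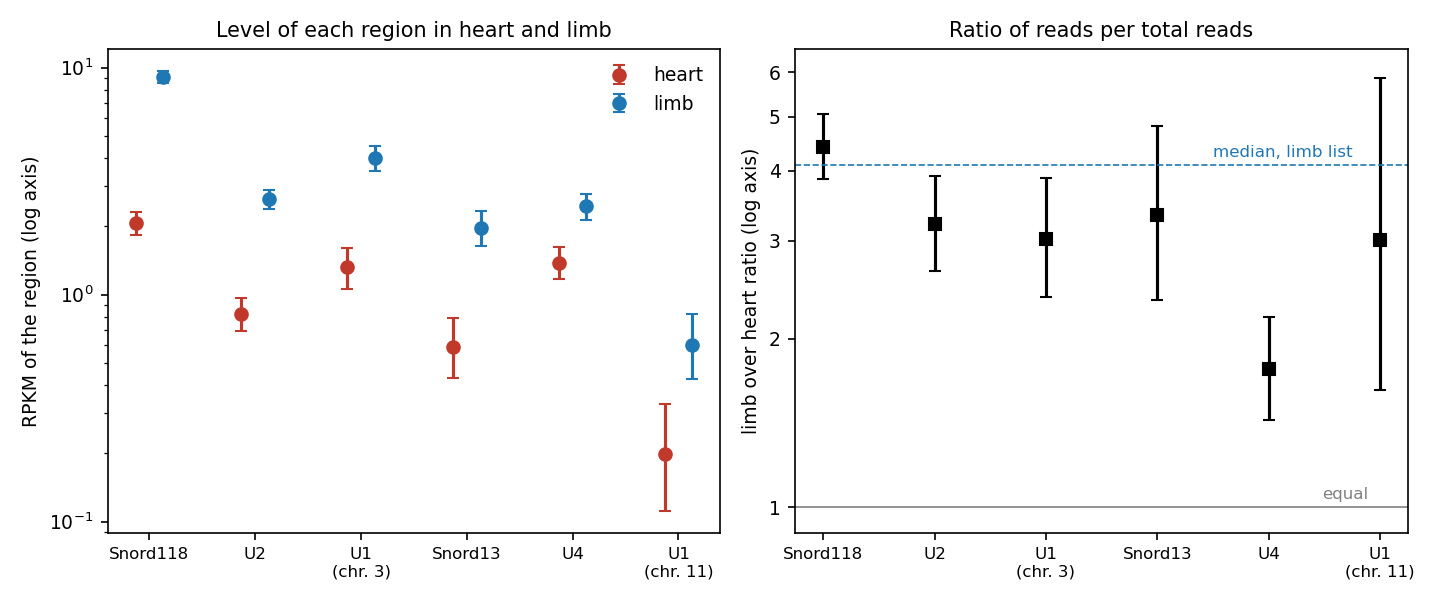
Left, RPKM (log axis) of each region in heart (red) and limb (blue), with 95% exact Poisson intervals, and right, the limb over heart ratio of reads per total (log axis) with its exact conditional interval, for 1 pool per tissue. The limb point lies above the heart point at every locus, and the U4 ratio of 1.77 lies under the intervals of all the others except U1 on chromosome 11 (dashed line, median of the limb list, 4.1).

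Against the rest of the limb list the 6 regions were above the median in RPKM, and 5 of them were under the median in ratio. The study cut the list by a z-test of proportions on read counts, so regions with few reads entered only with a large ratio. Level and ratio are thus tied by that cut. No set of regions with like read counts was compared, so a low ratio is not shown to be particular to these loci. The median over the 6 was 2.54 RPKM in limb and 1.07 in heart, where the medians of all 1078 limb regions were 0.346 and 0.087. All 6 lay above the list medians of RPKM in both tissues, and 5 lay above the 90th percentile of RPKM in limb, 0.997. By limb reads, however, U1 on chromosome 11 ranked 562 of 1078, with 39 reads where the list median was 42. Its region was 338 bp long, where the list median was 449.5 bp. The median ratio of the 6 was 3.12 and that of the list 4.1. By ratio Snord118 ranked 506 of 1078, Snord13 652, U2 673, U1 on chromosome 3 706, U1 on chromosome 11 708 and U4 1026, near the bottom of the list. A ratio of at least 2-fold was reached by 5 of the 6 regions and by 89.1% of the limb list, from which nothing can be read since the list was selected on this contrast. None of the 6 was without heart reads, as 130 regions of the list were. Their GC content ran from 37.5% (U4) to 48.2% (U1 on chromosome 11), around the list median of 42.8%.

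**Figure D3:**
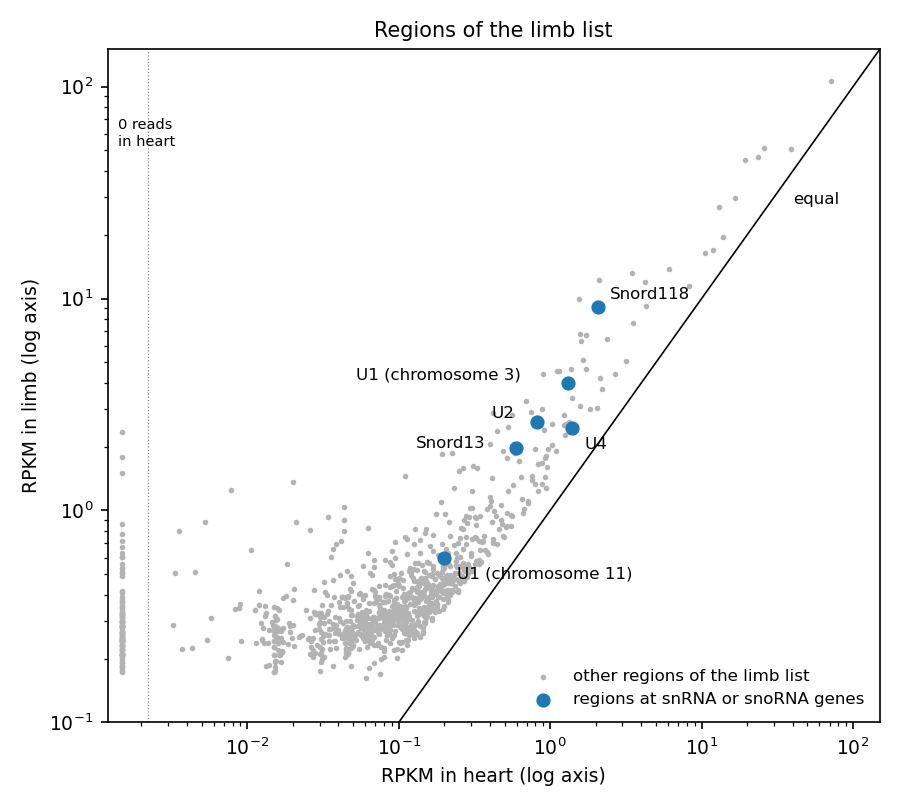
RPKM in limb against RPKM in heart (both log axes) for all regions of the limb list, with the 6 regions at small RNA genes in blue and the line of equal levels. Regions with 0 reads in heart are drawn left of the dotted line, and 5 of the 6 blue points lie above 1.9 RPKM in limb while U1 on chromosome 11, at 0.599, sits within the main cloud.

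The regions also differed in their neighbourhood. No other listed region lay within 20000 bp of the U2, U4, Snord13 or chromosome 3 U1 regions. The chromosome 11 U1 region was 1 of a run of limb regions, with 5 others of the limb list and none of the heart list within 20000 bp. Those 5 had limb over heart ratios of 1.97 to 2.4 and limb levels of 0.232 to 0.507 RPKM, under the 0.599 RPKM at the U1 gene, although the highest of them lay within its counting interval. Its ratio of 3.0 had an interval that included all of theirs. The Snord118 region had 1 listed neighbour 10328 bp away (chr11:68875619-68876638), with 362 reads in heart and 1235 in limb and a ratio of 3.94 (3.5 to 4.44), within counting error of that at Snord118.

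The annotation names 2975 snRNA and snoRNA genes on this build. Of the 1078 limb regions 7 overlapped such a gene, reaching 7 genes, and of the 834 heart regions 0 did. These are a small part of either list, the lists come from 1 pool per tissue, and a difference between them was not tested. The genes reached were 2 of 206 U1 genes, 1 of 51 U2, 1 of 43 U4, 1 of 5 U8, 1 of 26 U13 and 1 of 332 other C/D box genes. No listed region of either tissue overlapped any of the 936 U6, 116 U7, 28 U6atac, 10 U5, 6 U12, 5 U11 or 1 U4atac genes, the 59 U3, 1031 H/ACA box or 43 scaRNA genes, or the 77 genes of these biotypes with other names. The same held for the 331 genes of 7SK, 24 of Y RNA, 18 of RNase P, and 2 each of RNase MRP, vault RNA and telomerase RNA. The authors had removed regions over refGene genes, mouse mRNAs or ESTs, which are another annotation than the one used here, and only tissue-specific regions are listed, so a gene that was not reached is not shown to be silent or equal between the tissues.

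The additional limb region that overlapped a small RNA gene covers a SNORD113 gene (chr12:110925859-110927021) and was not among the 6. It had 215 reads in heart and 277 in limb, a ratio of 1.49 (1.24 to 1.79). The next closest was a limb region 184 bp after the 3′ end of a U3 gene, U3 being a snoRNA of ribosomal RNA cleavage. It lies at chr10:39978668-39978977, with 30 reads in heart and 56 in limb and a ratio of 2.16 (1.36 to 3.48). A limb region 264 bp before Snord49b had 49 and 143 reads and a ratio of 3.37 (2.42 to 4.76). For most annotated members of the 5 gene families here a unique read could have been placed beside the gene. At least 90% of the windows in the 300 bp after the gene were unique for 172 of the 206 U1 genes, 42 of 51 U2, 39 of 43 U4, 5 of 5 U8 and 25 of 26 U13 genes. Most of these genes are unlike the repeated U1 gene on chromosome 3. Only 14 of the 206 U1 and 5 of the 51 U2 genes had no unique window inside the gene. The counts therefore say little about near-identical copies, and why other genes were not reached was not tested.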

How the data were processed

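Total RNA of heart and limb at embryonic day 11.5 was measured in 1 pool per tissue, 2 samples in all. Per the labels and Methods, the authors depleted ribosomal RNA, fragmented the RNA, size-selected the libraries and sequenced 50-base stranded reads. The small RNA genes here are 104 to 191 bases long, and the effect of size selection on their reads was not tested. The authors filtered reads with CASAVA 1.8 and mapped them to mm9 using Bowtie2 (its version is not given in the sources used here). They dropped repetitively mapped reads, extended alignments to 200 bp and called regions of at least 10 reads with USeq. Regions over annotated refGene genes, mRNAs or ESTs were discarded. Each region has deposited raw read counts for both tissues, with no strand and no normalization. The authors also deposited RPKM, in which the count is scaled to region length (end minus start) and library total.

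The totals were recovered as count divided by RPKM and length. Counts have 95% exact Poisson intervals, and ratios the exact conditional binomial interval, tested on simulated counts. PCR reads without molecular identifiers are not independent molecules, so all intervals cover counting error only. A detection floor of 3 reads equals 1.35e-06% of the heart and 1.56e-06% of the limb total. No test between tissues was run. Members and gene lists were chosen with earlier results of these data known. The rule for named regions was all 6 members, the closest protein-coding gene of each, and at most 10 other regions at snRNA or snoRNA genes. The U3 and Snord49b regions, the listed neighbours within 20000 bp, and the ACTTACCTG and GTAGTA searches were added after values were seen.

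Positions were compared with GENCODE vM1 on NCBIM37, the mm9 build, and all regions lie within its chromosomes. Windows of 50 bases were counted in the whole reference on both strands by exact match, and similar genes were searched with blastn 2.17.0. One sequence is not reported here. Scripts ran in Python 3.11.15 with numpy 2.4.6, scipy 1.17.1, pandas 2.3.3 and biopython 1.88.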

Additional observations from a re-analysis of the deposited data

How the results depend on the processing

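With 1 pool per tissue no replicate could be left out, and the depth limits every ratio through the heart reads, of which the U1 region on chromosome 11 had only 15. Other library totals were the uniquely mappable reads and the genome-mappable reads less ribosomal reads. These totals, raw counts without scaling, or 1 read added in each tissue kept limb above heart in all 6 regions. That direction was set in advance and is no support, since the list was selected for more limb reads. The other totals and the raw counts also change every ratio by the same factor. The ratios ran from 1.53 to 1.9 for U4 and from 2.6 to 4.74 for the others. The highest, 4.74, was that of Snord118 on totals less ribosomal reads. The change from the reported ratio was smaller than its counting interval except for Snord118 on raw counts, at 3.82. With a threshold of 1.5-fold or 3-fold in place of 2-fold, 6 and 5 of the regions passed, where 99.3% and 65.9% of the limb list did. The count at 3-fold is not stable. The U1 regions passed it narrowly, at 3.023 (chromosome 3) and 3.004 (chromosome 11). On raw counts only Snord118 was over 3-fold, with U2 at 2.78, Snord13 at 2.89 and the U1 regions at 2.62 (chromosome 3) and 2.6 (chromosome 11). Limb regions at an annotated snRNA or snoRNA gene numbered 8 within 200 bp and 12 within 1000 bp, 4 overlapped snRNA genes and 3 snoRNA genes, and the heart list had 0 under each setting. With windows of 36 bases the unique share fell to 94.97% for Snord118, 93.7% for U1 on chromosome 3 and 96.8% for U4, and it was 100% for the other regions. At 95% identity over 90% of the gene, the matches numbered 18 for U1 on chromosome 3, 2 for U4 and 10 for U2, with the other genes as before.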
